A study of Mus musculus with 11 samples.

Results

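The 7 anterior Hox genes described here were Hoxb1 and Hoxd1 of paralog group 1, Hoxa2 and Hoxb2 of group 2, and Hoxa3, Hoxb3 and Hoxd3 of group 3. They were chosen by name, as members of groups 1 to 3, from the 32744 genes with an RNA value and the 27041 genes with an annotated start. Chromatin was profiled in 3 populations. Cap mesenchyme, the nephron progenitors of the kidney, was sorted as Cited1-RFP+ cells from E18.5 mice carrying Cited1nuc-TagRFP-T, a line of (C57BL/6 x DBA)F1 origin kept on C57BL/6J (N5). Ureteric epithelium, the branching tube that forms the collecting ducts, was sorted as Hoxb7-GFP+ cells at E15.5 from Hoxb7myr-Venus/+ mice of (C57BL/6J x CBA/J)F2 origin kept on C57BL/6J, so that the reporter used for sorting bears the name of another Hox gene. E14 embryonic stem (ES) cells, a wild-type 129/Ola line at passage 15, served as a reference from outside the kidney. For RNA, wild-type C57BL/6 embryos of E11.5 were dissected manually into metanephric mesenchyme and ureteric bud, so the RNA represents younger and unsorted tissue.

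Hox genes encode homeodomain transcription factors and lie in clusters, in which their order follows the order of their domains along the body axis. The anterior genes sit at the downstream end of a cluster, respond early to retinoic acid, and give identity to segments of the hindbrain and to the neural crest that leaves it. HOX proteins bind DNA with cofactors of the TALE class, the PBX and MEIS proteins. H3K4me3 is a histone mark of promoters, H3K27me3 is laid down by Polycomb repressive complexes, and Hox promoters in ES cells are known for carrying both.

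Every group was a single sample (n = 1), which leaves no replicate error and no test for any comparison. The 2 sorted kidney populations also differ in embryonic day and reporter line. Lineage therefore cannot be told apart from these when their marks are compared. RNA levels are FPKM, fragments scaled by transcript length and by library size, summed over the transcripts of a gene. Each log2 difference given is that of FPKM + 1, mesenchyme minus bud, and small levels are compressed by the added 1. Genes past a log2 difference of 2 in size were called 4-fold different if the higher tissue reached 2 FPKM. Over the 9345 genes at 1 FPKM or more in both tissues the median difference was -0.46, so a gene with no shift of its own lies near that value rather than at 0. The labels were checked against markers. Of 7 nephron progenitor markers, 6 were 4-fold higher in metanephric mesenchyme (summed level 189.8 FPKM, against 10.5 FPKM in ureteric bud). The exception was Cited1, the sorting gene, at 2.78 FPKM in metanephric mesenchyme and 8.35 FPKM in ureteric bud. All 7 ureteric markers were 4-fold higher in ureteric bud, with sums of 14.1 FPKM in metanephric mesenchyme and 2204 FPKM in ureteric bud. The 5 ES cell markers summed to 0.176 FPKM in metanephric mesenchyme and 0.0120 FPKM in ureteric bud, with Pou5f1 and Nanog listed at 0.

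The promoters of the 3 compact genes whose marks differed between the kidney populations are shown first. Each is the 250 bases before the start of the RefSeq promoter entry (GRCm38.p6, the same assembly as mm10), written in the direction of transcription. For Hoxb1 that start, chr11:96365758, lies just after the outermost annotated start, chr11:96365746, from which peak distances were measured. Capitals mark TGATNNAT, the core shape bound by PBX and HOX proteins together, and CCAAT, a common promoter motif, on either strand. No match overlapped another.

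Hoxb1 lies at chr11:96365746-96368254 on the plus strand, and the window shown is chr11:96365508-96365757.
Hoxb1: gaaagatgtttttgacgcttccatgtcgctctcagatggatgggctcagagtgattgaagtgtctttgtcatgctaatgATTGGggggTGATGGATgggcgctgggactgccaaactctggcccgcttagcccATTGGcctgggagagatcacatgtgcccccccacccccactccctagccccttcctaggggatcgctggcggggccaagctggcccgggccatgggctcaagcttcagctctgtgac
Hoxd1 lies at chr2:74762980-74765142 on the plus strand, and the window shown is chr2:74762730-74762979.
Hoxd1: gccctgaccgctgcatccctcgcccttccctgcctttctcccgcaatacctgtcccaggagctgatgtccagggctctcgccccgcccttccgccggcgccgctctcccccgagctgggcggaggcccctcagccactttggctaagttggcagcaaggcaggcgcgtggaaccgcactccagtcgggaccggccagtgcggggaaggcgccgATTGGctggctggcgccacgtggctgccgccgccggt
Hoxa2 lies at chr6:52162417-52164831 on the minus strand, and the window shown is chr6:52164832-52165081.
Hoxa2: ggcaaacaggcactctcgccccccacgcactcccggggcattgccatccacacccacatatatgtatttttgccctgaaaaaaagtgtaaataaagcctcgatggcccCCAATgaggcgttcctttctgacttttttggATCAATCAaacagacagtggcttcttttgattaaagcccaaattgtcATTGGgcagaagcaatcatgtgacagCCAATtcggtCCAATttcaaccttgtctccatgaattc

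TGATNNAT was found once in the Hoxb1 window and once in the Hoxa2 window, and in 7.68% of the 32851 promoter windows of the same length. The Hoxa2 window held 4 CCAAT motifs, the Hoxb1 window 2 and the Hoxd1 window 1, against at least 1 in 33.8% of all windows. The windows differed in base composition, since GC made up 71.6% of the Hoxd1 window, 59.2% of the Hoxb1 window and 46.4% of the Hoxa2 window, around a median of 52.4% over all windows. Of the 7 genes, 5 matched a promoter entry. The other entries were Hoxa3, with 64.8% GC and neither motif, and Hoxd3, with 49.2% GC, 1 CCAAT and 1 AGGTCA match. This half-site of nuclear receptors was found in 14.0% of all windows. The related half-site GGTTCA (8.85% of windows) was in none of the 5. Nor was the TATA box, searched as TATAAA (12.4% of windows), with both strands searched throughout. A match describes these letters and not a bound site.

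Hoxb1, which patterns a single segment of the hindbrain, was at 2.24 FPKM in metanephric mesenchyme and 0.116 FPKM in ureteric bud. The level was the 6th of the 7 in metanephric mesenchyme and the lowest of the 7 in ureteric bud. The ratio was 19.4, but the difference of 1.54 on the log2(FPKM + 1) scale stayed short of the 4-fold rule because both levels were low. Its 2 transcripts were both near 0 in ureteric bud, so their shares of the gene are not compared between the tissues. The 2189-bp transcript stood at 1.74 FPKM in metanephric mesenchyme (authors' interval 0.857 to 2.63) and at 5.4e-06 FPKM in ureteric bud (0 to 0.0745), and these intervals did not meet. The 2077-bp transcript stood at 0.491 FPKM in metanephric mesenchyme and 0.115 FPKM in ureteric bud, with intervals of 0 to 1.43 in mesenchyme and 0 to 0.252 in bud.

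Hoxd1, the other group 1 gene and one known for its role in sensory neurons, had the opposite pattern, with 0.363 FPKM in metanephric mesenchyme and 6.78 FPKM in ureteric bud. It was the lowest of the 7 in metanephric mesenchyme and the 3rd highest in ureteric bud. The ureteric level was 18.7 times the mesenchymal one, and the log2 difference of -2.51 passed the 4-fold rule. Nearly all of it came from 1 transcript of 1862 bp, at 0.363 FPKM in metanephric mesenchyme (interval 0.120 to 0.606) and 6.24 FPKM in ureteric bud (4.70 to 7.79). The group 1 genes thus leaned in opposite directions, as the plot of RNA levels shows.

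**Figure D1:**
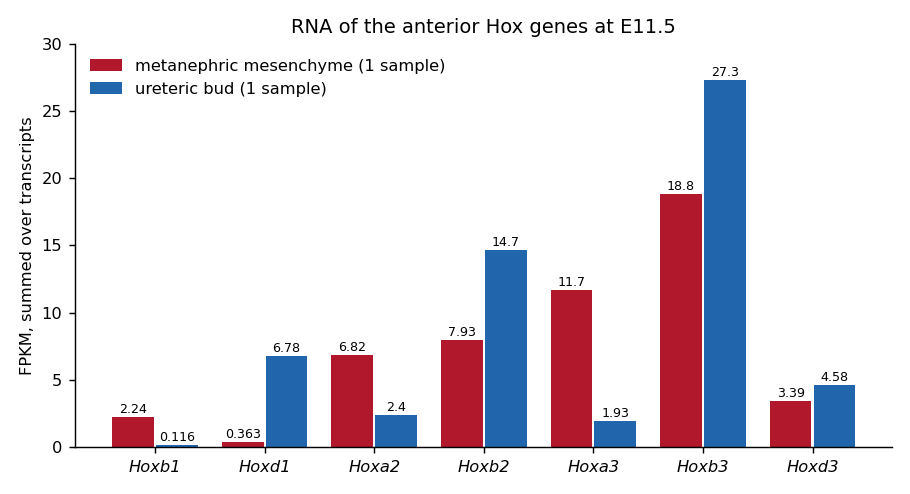
Bars give the RNA level in FPKM (vertical axis, linear, from 0) of each gene in 1 sample of metanephric mesenchyme (red) and 1 of ureteric bud (blue) at E11.5, with the value above each bar. Hoxb3 is highest in both tissues, at 18.8 FPKM in mesenchyme and 27.3 FPKM in bud, and the Hoxd1 and Hoxb1 bars lean in opposite directions.

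Hoxa2, which patterns the second pharyngeal arch, was at 6.82 FPKM in metanephric mesenchyme and 2.40 FPKM in ureteric bud, a ratio of 2.84 and a log2 difference of 1.20. Its single transcript had intervals of 5.28 to 8.37 in metanephric mesenchyme and 1.59 to 3.21 in ureteric bud, which did not meet, but it did not reach 4-fold. Hoxb2, which acts in the hindbrain beside Hoxb1, was at 7.93 FPKM in metanephric mesenchyme and 14.7 FPKM in ureteric bud, a log2 difference of -0.81, or -0.35 relative to the median of all genes. Its 2 transcripts were at 2.88 and 5.05 FPKM in metanephric mesenchyme and at 5.19 and 9.48 FPKM in ureteric bud, and each had overlapping intervals between the tissues. The group 2 genes thus leaned apart in value, Hoxa2 to the mesenchyme and Hoxb2 to the bud, neither by 4-fold.

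Hoxa3, needed for the thymus and parathyroid glands, was at 11.7 FPKM in metanephric mesenchyme and 1.93 FPKM in ureteric bud. It was the 2nd highest of the 7 in metanephric mesenchyme and the 6th in ureteric bud, and its log2 difference of 2.11 made it the only one of the 7 counted as 4-fold higher in metanephric mesenchyme. The 3836-bp transcript carried 59.1% of the gene's level in metanephric mesenchyme (6.90 FPKM, interval 4.56 to 9.24) and 41.8% in ureteric bud (0.809 FPKM, 0.277 to 1.34). The 5285-bp transcript stood at 3.66 FPKM in metanephric mesenchyme (2.22 to 5.09) and 0.219 FPKM in ureteric bud (0 to 0.625).

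A shorter Hoxa3 transcript of 2572 bp went the other way in value, with 0.0698 FPKM in metanephric mesenchyme and 0.759 FPKM in ureteric bud. It made up 0.597% of the gene's level in metanephric mesenchyme and 39.3% in ureteric bud, but its intervals of 0 to 0.796 in mesenchyme and 0.190 to 1.33 in bud overlapped. A 394-bp transcript on the strand opposite to Hoxa3 was listed at 6.80 FPKM in metanephric mesenchyme (0 to 16.7) and at 0 in ureteric bud, and it was not part of the sum. The libraries were stranded per the labels.

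Hoxb3, which acts with Hoxa3 and Hoxd3 in the neck and hindbrain, had the highest level of the 7 in both tissues, with 18.8 FPKM in metanephric mesenchyme and 27.3 FPKM in ureteric bud. The log2 difference of -0.52 was -0.06 relative to the median of all genes, and its direction turned when the libraries were set to the same median. A group of 3 transcripts carried most of it, and they did not share 1 ratio. The 3390-bp transcript stood at 4.30 FPKM in metanephric mesenchyme (2.43 to 6.17) and 9.22 FPKM in ureteric bud (6.38 to 12.05). These intervals did not meet as deposited, but they were not rescaled for the median difference between the libraries. The 6539-bp transcript stood at 5.23 FPKM in metanephric mesenchyme and 4.93 FPKM in ureteric bud, and the 3467-bp one at 5.06 FPKM in metanephric mesenchyme and 6.28 FPKM in ureteric bud, both with overlapping intervals.

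**Figure D2:**
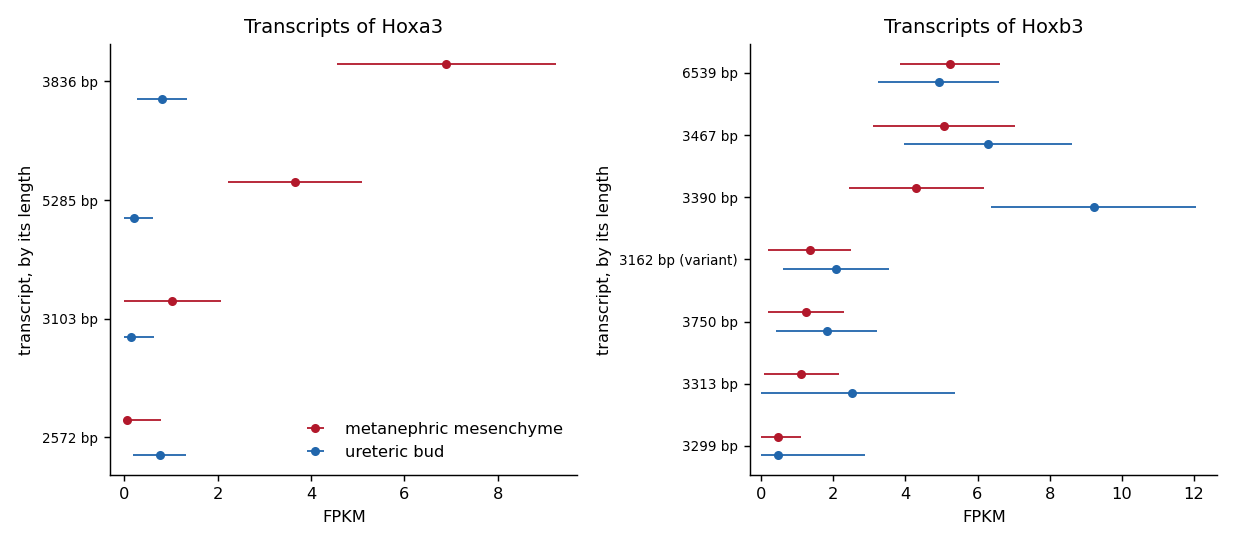
Points give the FPKM (horizontal axis) of each transcript of Hoxa3 (left) and Hoxb3 (right) in metanephric mesenchyme (red) and ureteric bud (blue), labelled by transcript length in bp, with lines for the interval deposited by the authors. Transcripts under 0.1 FPKM over both tissues are left out. The 3836-bp and 5285-bp transcripts of Hoxa3 and the 3390-bp transcript of Hoxb3 have intervals that do not meet as deposited, without rescaling of the libraries.

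Hoxd3, a regulator of the vertebrae of the neck, was at 3.39 FPKM in metanephric mesenchyme and 4.58 FPKM in ureteric bud. The log2 difference of -0.35 was 0.11 relative to the median of all genes, so this gene too changed direction with the scaling. Its 2 transcripts were at 1.65 and 1.74 FPKM in metanephric mesenchyme and at 2.38 and 2.19 FPKM in ureteric bud, with overlapping intervals, and the shorter was marked by the authors as having low data.

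In metanephric mesenchyme the order of levels per length was Hoxb3, Hoxa3, Hoxb2, Hoxa2, Hoxd3, Hoxb1, Hoxd1. In ureteric bud it was Hoxb3, Hoxb2, Hoxd1, Hoxd3, Hoxa2, Hoxa3, Hoxb1. Without replicates it cannot be said which neighbours in these orders differ. The genes of 1 paralog group did not share an order, whereas Hoxb3 stood above Hoxb2 and Hoxb2 above Hoxb1 in both tissues, following the cluster. All 7 reached 2 FPKM in their higher tissue, but Hoxb1, Hoxd1 and Hoxa3 only through that tissue. One of the 7 was 4-fold higher in metanephric mesenchyme, beside 2.19% of the 9920 genes that reached 2 FPKM, and 1 of the 7 was 4-fold higher in ureteric bud, beside 4.83%. Each share rests on a single gene, so nothing is read from it. The median difference of the 7 was -0.35, against -0.50 over all genes tested.

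In whole tissue, fewer cells of a type and less RNA per cell cannot be told apart. Beside the genes with higher values in metanephric mesenchyme, markers of other cells were higher there too. All 5 stroma markers were 4-fold higher in it (sums of 95.0 FPKM in metanephric mesenchyme and 1.28 FPKM in ureteric bud), as were 2 of 5 of endothelium (25.8 FPKM in mesenchyme and 2.95 FPKM in bud), 3 of 4 of blood (147.4 FPKM in mesenchyme and 16.2 FPKM in bud) and 2 of 5 of axial and limb mesoderm (29.3 FPKM in mesenchyme and 1.61 FPKM in bud, with Myf5 listed at 0). Of 6 neuron and neural crest markers 1 was 4-fold higher (10.3 FPKM in mesenchyme and 5.67 FPKM in bud), and Sox10, which defines the neural crest, was at 0.295 FPKM in metanephric mesenchyme and 0.0135 FPKM in ureteric bud. Their part in the values of Hoxb1, Hoxa2 and Hoxa3 was not tested.

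H3K4me3 was taken as present at a start when at least 1 bp of a deposited peak lay within 1 kb of the outermost annotated start. By that rule it was present at all 7 genes in cap mesenchyme, beside 50.3% of all gene starts. It was present at 6 of the 7 in ureteric epithelium, beside 46.5%, and at 6 of the 7 in ES cells, beside 55.8%. The gene without it was Hoxb3 both times. So 1 of the 7, Hoxb3, had it in cap mesenchyme but lacked it in ureteric epithelium, as did 4.59% of all genes, and 0 of the 7 had it in ureteric epithelium but lacked it in cap mesenchyme (0.814% of all genes). Hoxb3 had the highest RNA level of the 7 in ureteric bud (27.3 FPKM) and Hoxd1 the lowest in metanephric mesenchyme (0.363 FPKM). In the sorted populations the mark was absent at the outermost start of Hoxb3 in ureteric epithelium and present at that of Hoxd1 in cap mesenchyme. Yet the Hoxb3 level is a sum over transcripts assigned to 8 different starts, and only the outermost was examined for marks. An 8.7-kb ureteric H3K4me3 peak lay inside the gene, from 31.1 kb after that start.

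H3K27me3 was rarer at these starts in the kidney populations. It was present at 1 of the 7 starts in cap mesenchyme (6.79% of all starts), at 2 of the 7 in ureteric epithelium (9.49%) and at all 7 in ES cells (9.2%). In cap mesenchyme the gene was Hoxd1, and in ureteric epithelium the genes were Hoxb1 and Hoxa2. Thus 2 of the 7 had the mark in ureteric epithelium but not in cap mesenchyme (4.86% of all genes), and 1 of the 7 had it in cap mesenchyme but not in ureteric epithelium (2.16%). Hoxd1 RNA was lower in metanephric mesenchyme than in ureteric bud, and Hoxb1 and Hoxa2 RNA lower in ureteric bud. By this rule each H3K27me3 call thus lay on the side with the lower RNA value. The marks and the RNA differ in embryonic day, and lineage and age cannot be told apart here. Hoxa3, lower in ureteric bud than Hoxa2, had no H3K27me3 at its outermost start there. Its level is a sum over transcripts assigned to 5 different starts, and only the outermost was examined. The Hoxb1 call was lost when a score of 50 was required and when the lists were cut to equal length, and with 2 kb on each side of the start Hoxd1 carried the mark in both kidney populations, over 19.9% of the window in cap mesenchyme and 20.3% in ureteric epithelium. H3K4me3 lay at the same starts, so both marks were present at 1 of the 7 in cap mesenchyme (4.62% of all starts), 2 in ureteric epithelium (4.89%) and 6 in ES cells (8.49%). Sorted cells are mixtures, and the marks need not lie in the same cell.

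The difference from ES cells was in part one that many genes had. Of the 2488 genes with H3K27me3 at the start in ES cells, 57.0% lacked it in cap mesenchyme and 47.8% lacked it in ureteric epithelium. Among the 7 genes these were 6 in cap mesenchyme and 5 in ureteric epithelium. As shares of all genes, 5.24% had the mark in ES cells but not in cap mesenchyme, and 4.4% had it in ES cells but not in ureteric epithelium.

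At Hoxb1 the ureteric H3K27me3 peak was 1.67 kb wide and ran from -0.5 to 1.17 kb around the start, over the whole promoter sequence shown above. A ureteric H3K4me3 peak of 1.81 kb covered nearly the same stretch. The peak score, the authors' own value, was 48.1 in a list with a median of 39.3. This is thus a moderate peak, at or above 71.4% of its list. In cap mesenchyme the H3K4me3 peak was 1.53 kb wide and the nearest H3K27me3 peak lay 132.8 kb from the start. In ES cells H3K27me3 covered 100% of the gene body.

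At Hoxa2 the ureteric H3K27me3 peak was 1.62 kb wide and ran from -0.211 to 1.41 kb around the start, covering most of the promoter sequence shown. Its score of 90.9 lay at or above 96.0% of its list. The H3K4me3 peak of 2.76 kb spanned it. In cap mesenchyme H3K4me3 covered 75.5% of the Hoxa2 body in a peak of 3.35 kb, and the nearest H3K27me3 peak was 6.77 kb from the start. In ES cells a single H3K27me3 peak of 11503 bp ran over Hoxa2 and into the downstream end of Hoxa3.

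At Hoxd1 the marks were arranged differently. The 2 cap mesenchyme H3K27me3 peaks were 346 and 276 bp wide, lay upstream of the start (from -1.10 to -0.758 kb and from -0.545 to -0.270 kb), and ended short of the promoter sequence shown. They covered 25.9% of the start window and none of the gene body. Their scores of 113.3 and 98.3 lay at or above 93.1% and 90.8% of their list. In ureteric epithelium the nearest H3K27me3 peak was 1.07 kb from the start, just outside the window, so the difference between the 2 kidney populations at Hoxd1 is one of a short distance.

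**Figure D3:**
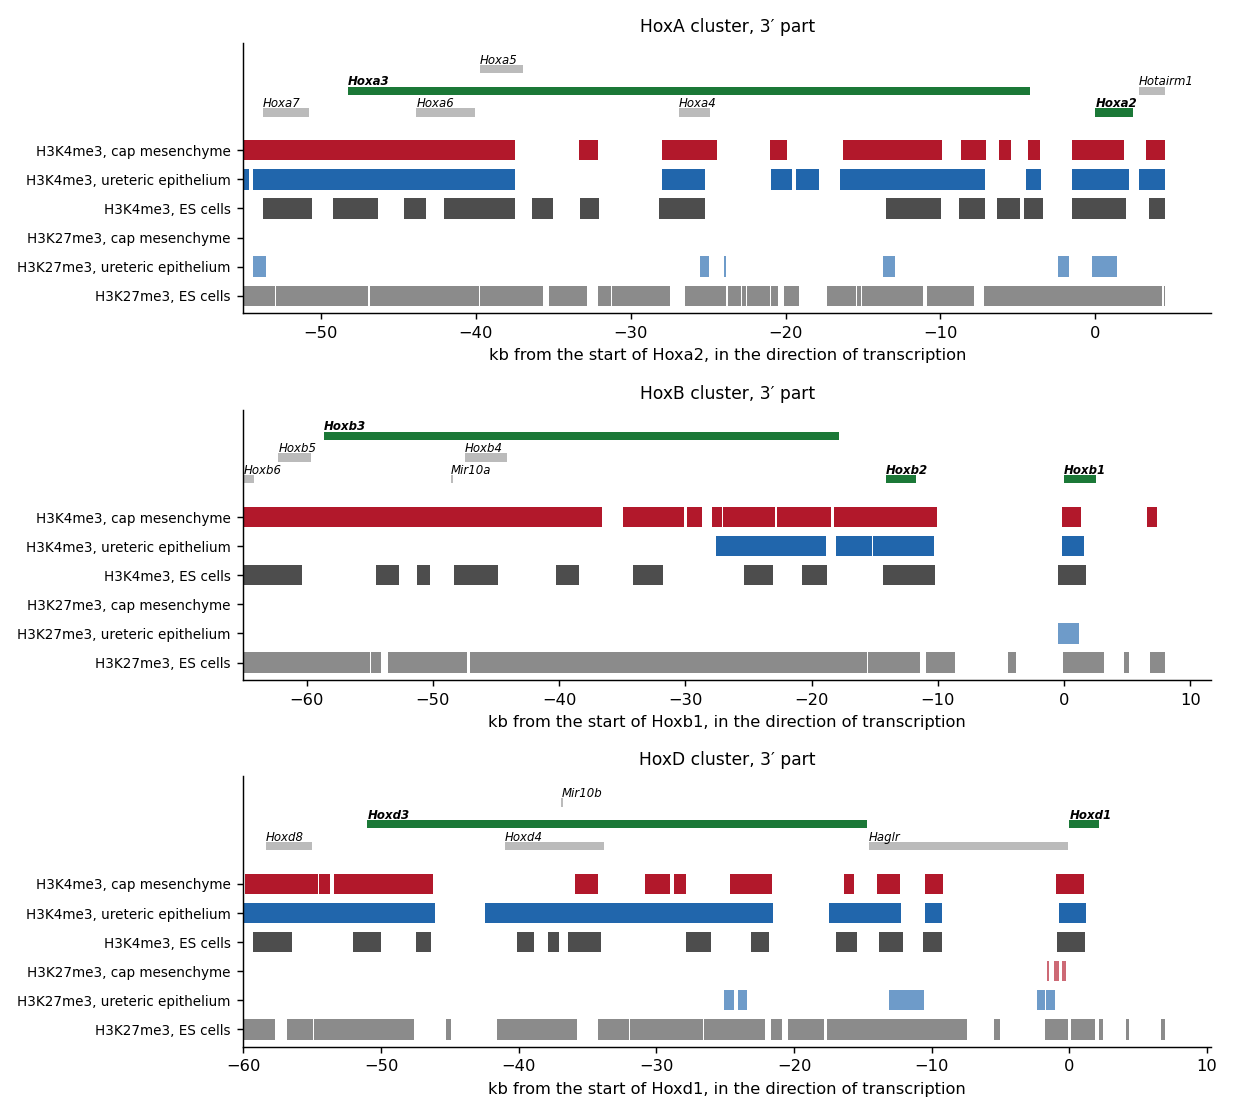
Peaks of H3K4me3 and H3K27me3 (rows) in cap mesenchyme, ureteric epithelium and ES cells are drawn to scale along the downstream parts of the HoxA, HoxB and HoxD clusters, in kb from the start of Hoxa2, Hoxb1 and Hoxd1 in the direction of transcription. Green bars are the 7 genes, grey bars their neighbours. ES cell H3K27me3 runs over the 7 genes, and ureteric H3K27me3 is seen at Hoxb1 and Hoxa2. No ureteric H3K4me3 peak lies over the upstream part of Hoxb3.

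The gene bodies split by size. Hoxb1, Hoxd1, Hoxa2 and Hoxb2 span 2.16 to 2.51 kb, whereas the annotated spans of Hoxd3, Hoxb3 and Hoxa3 are 36.3, 40.8 and 44.0 kb and hold other genes, so coverage of a group 3 body also describes those genes. Hoxa3 (chr6:52169059-52213067, minus strand) holds Hoxa4, Hoxa5 and Hoxa6. Hoxb3 (chr11:96307101-96347930, plus strand) holds Mir10a and Hoxb4, and Hoxd3 (chr2:74711993-74748271, plus strand) holds Hoxd4 and Mir10b.

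H3K27me3 covered 0 of the 7 bodies in cap mesenchyme, where 23.9% of all gene bodies had some of the mark. In ureteric epithelium it covered 46.7% of Hoxb1, 58.4% of Hoxa2, 3.38% of Hoxa3 and 3.75% of Hoxd3, and none of Hoxd1, Hoxb2 and Hoxb3, and 30.4% of all bodies had some. In ES cells it covered between 76.8% (Hoxd3) and 100% (Hoxb1, Hoxa2 and Hoxb2), with a median over the 7 of 97.9%, while 12.5% of all bodies had any. The ureteric stretches inside Hoxa3 were 3 small peaks of at most 0.775 kb, and those inside Hoxd3 were 2 peaks of at most 0.703 kb.

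Some H3K4me3 lay in all 7 bodies in cap mesenchyme (58.0% of all gene bodies), ureteric epithelium (52.7%) and ES cells (65.6%). Its coverage was closer between the kidney populations for 5 genes than for Hoxb3 and Hoxd3. Hoxb2 (chr11:96351632-96354020, plus strand) was covered fully in all 3 populations, by peaks of 8.09 kb in cap mesenchyme, 4.80 kb in ureteric epithelium, and 4.08 kb for ES cells. Hoxb1 was covered at 54.3% in cap mesenchyme, 64.2% in ureteric epithelium, and 69.1% for ES cells. Hoxd1 was covered at 48.7% in cap mesenchyme, 55.5% in ureteric epithelium, and 54.1% for ES cells. In the compact genes these were single peaks at the start. Hoxa2 was covered at 75.5% in cap mesenchyme, 89.2% in ureteric epithelium, and 80.8% for ES cells, and Hoxa3 at 58.2% in cap mesenchyme, 58.9% in ureteric epithelium, and 46.7% for ES cells. The medians over all genes were 2.20% in cap mesenchyme, 0.857% in ureteric epithelium, and 5.99% for ES cells.

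The H3K4me3 peaks at the start also differed in rank within their own list. Each rank is the share of the list scoring at or below the peak, so peaks with equal scores count. In cap mesenchyme this share was 98.9% at Hoxb2, Hoxa3, Hoxb3 and Hoxd3, all with a score of 3100. It was 67.5% at Hoxa2, 60.7% at Hoxd1 and 52.2% at Hoxb1. In ureteric epithelium it was 99.9% at Hoxb2 and Hoxd3, both again with a score of 3100. There it was 97.1% at Hoxa3 and 60.2% at Hoxa2, but 33.6% at Hoxb1 and 30.4% at Hoxd1. The group 1 genes thus had the lowest-ranking promoter peaks of those with the mark in both kidney populations, although Hoxd1 RNA was the 3rd highest of the 7 in ureteric bud.

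With all deposited peaks, Hoxb3 and Hoxd3 differed between the kidney populations in opposite directions. H3K4me3 covered 92.1% of Hoxb3 in cap mesenchyme, 21.9% in ureteric epithelium, and 36.2% for ES cells. It covered 35.6% of Hoxd3 in cap mesenchyme, 78.8% in ureteric epithelium, and 31.0% for ES cells. The Hoxd3 difference rested on lower-scoring peaks: with only the peaks above the median score of each list, coverage was 23.0% in cap mesenchyme and 21.1% in ureteric epithelium, whereas Hoxb3 kept 76.7% in cap mesenchyme and 21.9% in ureteric epithelium. Their RNA levels differed by less than 4-fold, with log2 differences of -0.52 for Hoxb3 and -0.35 for Hoxd3.

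**Figure D4:**
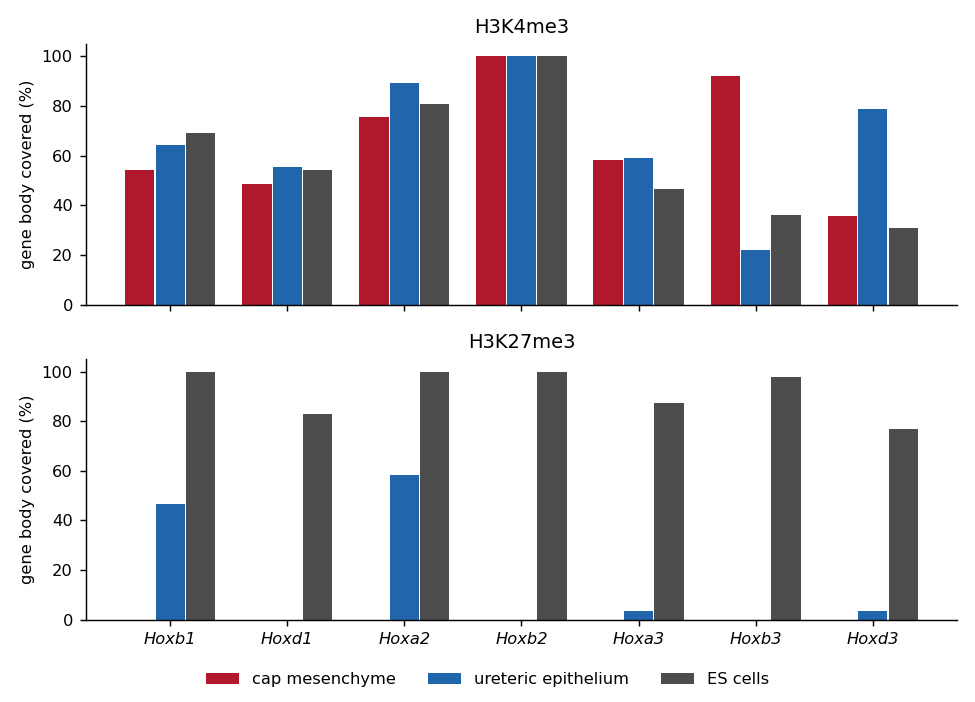
Bars give the percent of each gene body covered by deposited peaks (vertical axis, from 0 to 100) of H3K4me3 (top) and H3K27me3 (bottom) in cap mesenchyme, ureteric epithelium and ES cells, from 1 peak list each. Hoxb3 has its tall H3K4me3 bar in cap mesenchyme (92.1%) and Hoxd3 in ureteric epithelium (78.8%), and H3K27me3 has no bar in cap mesenchyme.

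Cut into 4 equal parts from the start, Hoxb3 was covered at 100%, 99.9%, 75.2% and 93.1% in cap mesenchyme. In ureteric epithelium the first 3 parts held no H3K4me3 peak and the last was covered at 87.6%. The start itself lay in a 45.5-kb peak in cap mesenchyme, while in ureteric epithelium the first peak began 31.1 kb after the start, and in ES cells the nearest peak was 1.74 kb away.

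This ureteric gap ran on beyond Hoxb3. From the previous peak to the first one in Hoxb3 there were 71.2 kb without a deposited ureteric H3K4me3 peak (from chr11:96267003 to chr11:96338178), and the stretch held Hoxb9, Hoxb8, Hoxb7, Hoxb6, Hoxb5 and Hoxb4. Yet these 6 genes had 13.1 to 75.8 FPKM in ureteric bud, and Hoxb3 itself 27.3 FPKM. No ureteric H3K27me3 peak lay within 58.1 kb of the outermost Hoxb3 start either, so that start had no deposited peak of either mark in ureteric epithelium. The RNA of E11.5 and the chromatin of E15.5 come from different preparations, and their part in this was not tested. Read signal was not analysed here, so a missing mark and a missing peak call cannot be told apart.

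Over Hoxd3 the 4 parts were covered at 52.7%, 18.46%, 39.6% and 31.9% in cap mesenchyme, and at 59.8%, 100%, 100% and 55.3% in ureteric epithelium. The ureteric middle was a single peak of 20.9 kb, from 8.52 to 29.5 kb after the start, that ran over Hoxd4. Its score of 259.3 lay at or above 45.6% of its list. At the start itself both kidney populations had a peak of similar width, 7.24 kb wide in cap mesenchyme and 7.38 kb wide in ureteric epithelium, against 2.08 kb in ES cells.

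At Hoxa3 the start lay in a 48.2-kb H3K4me3 peak in cap mesenchyme and in a 16.9-kb peak in ureteric epithelium, against 2.92 kb in ES cells. Inside the gene the peaks ended at nearly the same place, 10.8 kb after the start in both kidney populations, and the difference in width came from the upstream side, where the cap mesenchyme peak began at -37.4 kb from the start and the ureteric one at -6.125 kb. Hoxa3 was thus covered to a like extent in both, at RNA levels of 11.7 FPKM in metanephric mesenchyme and 1.93 FPKM in ureteric bud.

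The miR-10 hairpins lie inside Hoxb3 and Hoxd3. The mature sequences, from RefSeq (GRCm38.p6), are shown because they share a seed (bases 2 to 8, in capitals) and differ at 1 position outside it. They lie at chr11:96317186-96317208 and chr2:74726074-74726096, both on the plus strand.
mmu-miR-10a-5p: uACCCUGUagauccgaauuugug
mmu-miR-10b-5p: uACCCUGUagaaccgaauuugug

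The hairpin of Mir10a with 1 kb on each side was covered by H3K4me3 at 100% in cap mesenchyme, 0% in ureteric epithelium, and 41.0% for ES cells. That of Mir10b was covered at 1.93% in cap mesenchyme, 100% in ureteric epithelium, and 67.8% for ES cells, and it lies within the 20.9-kb ureteric peak whose score is below the median of its list. H3K27me3 covered neither in the kidney populations and both fully in ES cells. In the RNA table the Mir10a hairpin was at 16.95 FPKM in metanephric mesenchyme and listed at 0 in ureteric bud, and the Mir10b hairpin was listed at 0 in both. No interval is given here for these short hairpins, and they lie inside Hox genes that had RNA in both tissues, so no difference is read from these levels. The mature miRNAs were not measured here.

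The long noncoding neighbours named here had at most 5.46 FPKM. Hotairm1, next to Hoxa2, was at 3.11 FPKM in metanephric mesenchyme and 4.54 FPKM in ureteric bud, a log2 difference of -0.43 that lies near the median of all genes. Haglr, between Hoxd3 and Hoxd1, was at 0.241 FPKM in metanephric mesenchyme and 1.04 FPKM in ureteric bud. Hoxaas2 in the HoxA cluster was at 1.03 FPKM in mesenchyme and 0.247 FPKM in bud, and Hoxd3os1 at 0.371 FPKM in mesenchyme and 0.797 FPKM in bud. Hoxb5os, just upstream of the Hoxb3 start, was at 5.46 FPKM in mesenchyme and 4.85 FPKM in bud. Among coding neighbours, Hoxd8, upstream of Hoxd3, was at 6.18 FPKM in metanephric mesenchyme and 38.4 FPKM in ureteric bud. Hoxa5 and Hoxa6, inside the Hoxa3 span, were at 20.8 and 28.6 FPKM in metanephric mesenchyme and at 3.21 and 1.07 FPKM in ureteric bud. Hoxa3 therefore shared its direction with the Hox genes inside its span.

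Set beside the other Hox genes of all clusters, the 7 anterior genes had H3K27me3 at the start about as seldom as the middle blocks. However, none of the 7 lies in the HoxC cluster, whereas every other block holds HoxC genes. In cap mesenchyme the mark was at 1 of the 7, at 0 of 7 genes of groups 4 and 5, at 0 of 8 of groups 6 to 8, at 1 of 10 of groups 9 to 11 and at 5 of 6 of groups 12 and 13. In ureteric epithelium these counts were 2, 2, 3, 7 and 6. The ureteric genes of groups 4 and 5 were Hoxc4 and Hoxc5, and those of groups 6 to 8 were Hoxa7, Hoxc6 and Hoxc8. The likeness in ureteric counts thus rests largely on a cluster that the 7 genes do not share. In ES cells it was at every gene of every block. H3K4me3 in ureteric epithelium was at 6 of the 7 anterior genes, and from the next block to the most posterior at 4 of 7, 4 of 8, 9 of 10 and 1 of 6.

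The median RNA level of the 7 was 6.82 FPKM in metanephric mesenchyme and 4.58 FPKM in ureteric bud. In metanephric mesenchyme the medians of the other blocks were 12.1, 14.8, 16.3 and 0.0989 FPKM from anterior to posterior, and in ureteric bud they were 3.21, 23.7, 0.187 and 0 FPKM. The largest contrast was that of groups 9 to 11, where 8 of 10 genes were 4-fold higher in metanephric mesenchyme, against 1 of the 7 anterior genes. No test of these differences was made with 1 sample a tissue.

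**Figure D5:**
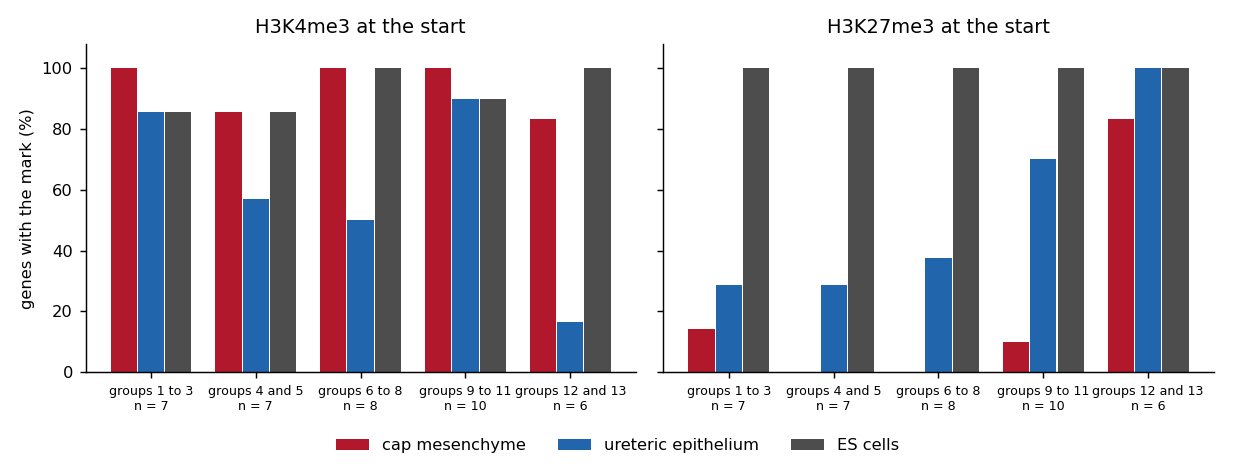
Bars give the percent of genes (vertical axis, from 0 to 100) with H3K4me3 (left) or H3K27me3 (right) at the start in cap mesenchyme, ureteric epithelium and ES cells, for the 7 anterior genes (groups 1 to 3) and the other Hox blocks, with the number of genes below each. H3K27me3 is at all genes in ES cells and at 2 of the 7 anterior genes in ureteric epithelium, against 7 of 10 in groups 9 to 11. The other blocks, unlike the 7 genes, include HoxC genes.

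The genes most like each of the 7 were found over 16989 protein-coding genes by the distance over 8 values, the 2 RNA levels and the coverage of the start window by the 2 marks in 3 populations, each divided by its SD. The closest match of all was between Hoxd3 and Hmga2, a chromatin protein of embryonic cells, at a distance of 0.17, followed by Rnf217 (0.73) and Fgf9 (0.80). Hoxb2 was closest to Pax2, a transcription factor needed in both kidney tissues (0.50), then to Pogk (0.98) and Zfp503 (1.18). Hoxa3 was closest to Hoxa5 (0.59), Fbn1 (0.64) and Uncx (0.91).

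The 3 genes nearest to Hoxb3 were of its own cluster, namely Hoxb8 (1.92), Hoxb4 (2.22) and Hoxb9 (2.36), all without H3K4me3 at the start in ureteric epithelium. Hoxb1 was nearest to Dtx1 (0.85), Irf5 (1.14) and Col13a1 (1.24), Hoxd1 to Vwa2 (1.09), Hs3st3b1 (1.31) and Bmp6 (1.56), and Hoxa2 to Scarf2 (1.36), Rem1 (1.59) and Hoxd11 (1.71).

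Genes that act on or with anterior Hox genes were followed as lists. Of 18 retinoic acid pathway genes, 15 reached 2 FPKM and their median difference was -0.16. Of these, 2 were 4-fold higher in metanephric mesenchyme and 2 in ureteric bud. Aldh1a2, which makes retinoic acid, was at 101.2 FPKM in metanephric mesenchyme and 0.901 FPKM in ureteric bud, and Crabp1, which binds it, at 41.5 FPKM in metanephric mesenchyme and 0.499 FPKM in ureteric bud. The related enzymes Aldh1a1 and Aldh1a3 had their higher values in ureteric bud, with Aldh1a1 listed at 0 in metanephric mesenchyme and at 58.3 FPKM in ureteric bud, and Aldh1a3 at 0.153 FPKM in metanephric mesenchyme and 57.8 FPKM in ureteric bud.

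Of 9 TALE cofactors, 8 reached 2 FPKM and their median difference was 1.64. In metanephric mesenchyme 3 were 4-fold higher and none in ureteric bud. Meis2 was at 152.5 FPKM in metanephric mesenchyme and 1.98 FPKM in ureteric bud, Meis1 at 62.4 FPKM in mesenchyme and 0.288 FPKM in bud, and Meis3 at 10.4 FPKM in mesenchyme and listed at 0 in bud. The bud, where Hoxb2 and Hoxd1 had their higher values, held at most 1.98 FPKM of these Meis genes.

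Of 11 hindbrain regulators and partners of these genes, 5 reached 2 FPKM (median difference -0.86). Zfp703 was 4-fold higher in metanephric mesenchyme (11.2 FPKM, against 1.79 FPKM in ureteric bud). Egr2, which activates Hoxa2 and Hoxb2 in the hindbrain, was listed at 0 in metanephric mesenchyme and stood at 0.339 FPKM in ureteric bud. Of 10 Polycomb and Trithorax genes all reached 2 FPKM and none was 4-fold different, with a median difference of -0.31, near that of all genes.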

How the data were processed

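FPKM values were deposited by the authors in 1 Cuffdiff table of 138486 transcripts, with 1 column for each tissue, and the peak lists were deposited with a score per peak that is the authors' own. Per the submitters' processing notes, Bowtie2, MACS, TopHat, Cufflinks and Cuffdiff were used on mm10; versions, controls and the libraries behind each column are not given in the sources used here. Read depth is unknown, so no interval of counting error is given, and the transcript intervals are the authors' own. The lowest score kept was 50 in the H3K4me3 lists, and 40, 30 and 40 in the H3K27me3 lists of cap mesenchyme, ureteric epithelium and ES cells, so the lists were not cut alike. The H3K4me3 lists held 32992, 23958 and 67022 peaks in that order, and the H3K27me3 lists 108394, 144362 and 12879. The 3 input libraries were not analysed here.

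Transcripts were assigned to a gene by their RefSeq accession and summed over sense rows. Rows with no reference (5290, with 93.6% of the mesenchymal and 93.9% of the ureteric total) were left out. Strand came from the RefSeq promoter table, and for Hoxb2 and Hoxb3, which have no entry, from the other genes of their cluster. Every count of genes was set beside all genes treated alike, and the scripts (Python 3.11.15, pandas 2.3.3, numpy 2.4.6) were tested on simulated data. The genes and lists were chosen with earlier results of these data known. All 7 genes, their neighbours, the 3 most alike genes for each, and the 4-fold different genes of each list are named, except that some list genes are not reported here. Alternatives covered the pseudocount, the minimum level, the rows summed, scaling, the window, peak scores and list length.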

Additional observations from a re-analysis of the deposited data

How the results depend on the processing

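No paired analysis was possible because each group held 1 sample and no replicate numbers were shared. The RNA direction held for all 7 genes under each pseudocount and each choice of rows, but with both libraries rescaled to the same median the differences of Hoxb3 and Hoxd3 turned to 0.0227 and 0.106. With a pseudocount of 0.1 FPKM, Hoxb1 reached 3.44 and 2 genes were 4-fold higher in metanephric mesenchyme, because the log scale then damps low values less. At equal list length the count with H3K4me3 at the start in ES cells was 2, since that list is the longest. The cap mesenchyme H3K27me3 count was 0 when 50% of the window was required and 0 in the gene body. The ureteric H3K27me3 count was 1 with a score of at least 50, 1 at equal list length, where Hoxb1 dropped out both times, and 4 when the whole body was searched. With 2 kb on each side of the start, Hoxd1 carried H3K27me3 in both kidney populations (19.9% of the window in cap mesenchyme and 20.3% in ureteric epithelium). With only the peaks above the median score of each list, H3K4me3 covered 23.0% of the Hoxd3 body in cap mesenchyme and 21.1% in ureteric epithelium, so the difference given above turned. Of the 21 most alike genes, 5 remained with the coverage values alone. Taking each count of genes under each alternative setting, 51 results stayed within 1.5 times the value reported and 7 did not. Those within it include falls from 6 to 4 genes with H3K4me3 at the start in ureteric epithelium and in ES cells. Both came with only the upper part of each list, above its median score. The number of libraries behind each column is unknown, so the precision of every RNA value rests on the authors' intervals.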
